A study of Mus musculus with 6 samples.

Results

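The 9 genes described here encode proteases, central components, regulators and a receptor of the complement system: C1ra, C1s1, C2, C3, C4b, Cfb, Serping1, Cd55 and C3ar1. They were taken by symbol from a count table of 55487 genes, of which 15114 passed the filter on low counts over all 6 tumors, and all 9 were among these. They were picked with the difference between IFN-γ and control tumors already known, so their values in that comparison are a description and carry no test. RNA-seq was performed on 6 subcutaneous tumors formed by CT26.WT cells, a colon carcinoma line of BALB/c origin labelled as WT, in immunocompetent male BALB/c mice that were 4 weeks old when obtained. The 3 tumors of the IFN-γ group came from mice given 100 µL of IFN-γ at 100 ng/ml into the tail vein every 48 h. The 3 control tumors came from mice given 100 µL of PBS by the same route. Whole tumors were sequenced, so host cells in the tissue contributed RNA alongside the carcinoma cells, and in such bulk samples fewer cells of a type and less RNA per cell cannot be told apart. The cells were implanted at a single dorsal site in each mouse, but the labels do not tie a library to an animal, so p-values measure the spread between these samples.

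Complement is a cascade of plasma and tissue proteins that coats targets, releases inflammatory fragments and can end in a membrane pore. In the classical pathway, C1q binds a target and carries the proteases C1r and C1s; C1s cleaves C4 and C2, whose fragments form the enzyme that cleaves C3, while factor B takes the place of C2 in the alternative pathway. The C1 inhibitor, encoded by Serping1, blocks C1r and C1s, and Cd55 (decay-accelerating factor) speeds the decay of C3-cleaving enzymes on cell membranes. C3ar1 is the receptor for the C3a fragment. The liver makes most plasma complement, but macrophages, fibroblasts and carcinoma cells make several components locally, and IFN-γ is a known inducer of many of these genes.

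The libraries held between 15759300 and 17559680 counts on genes, and 3 counts, the limit taken for a count of 0, corresponded to between 0.171 and 0.190 CPM (counts scaled to the library size after TMM adjustment). IFN-γ tumor 3 stood apart from IFN-γ tumors 1 and 2. Over 20 known IFN-γ response genes, the median log2 ratio to the control mean was 0.99 in IFN-γ tumor 1 and 0.95 in tumor 2, but -0.04 in tumor 3. Keratin genes of skin were high in that tumor, with Krt14 at 33.2 CPM and Krt5 at 16.4 CPM, against at most 3.87 CPM for either in the other tumors. Fold changes of the members and counts of genes called are therefore given for all 6 tumors and again without it. Because IFN-γ tumor 3 was set apart after its values were seen, adjusted p values and calls without it are a description throughout. Of the epithelial genes checked against the carcinoma label, Krt18 was between 6.41 and 10.4 CPM and Cdh1 between 1.28 and 2.45 CPM, whereas Epcam stayed at or under 0.926 CPM and Cldn7 at or under 0.0563 CPM. Of the 8 hepatocyte genes listed, Apoa2, Ttr, Fga and Fgb had 0 counts in every tumor. Alb and Serpina1a reached at most 0.371 CPM and Apoa1 at most 0.685 CPM, whereas Trf was at 69.4 to 118 CPM.

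Among the members, C1ra and C1s1 form a neighbouring pair on mouse chromosome 6. On GRCm38, C1ra spans chr6:124512405-124523443 on the forward strand and C1s1 spans chr6:124530345-124542359 on the reverse strand, 6901 bp apart. C3ar1 lies on the same chromosome at chr6:122847138-122856161. Chromosome 17 holds C4b (chr17:34728380-34743882), Cfb (chr17:34856374-34862518), C2 (chr17:34862604-34898265) and, farther away, C3 (chr17:57203970-57228136), all on the reverse strand. Serping1 is at chr2:84765387-84775444 and Cd55 at chr1:130439027-130462744. RefSeq promoter windows (GRCm38.p6, from 250 bases before to 50 bases after the start) were at hand for 5 of the 9 members, namely C1ra, C1s1, C3, Cd55 and C3ar1. They were searched on both strands for 5 motifs, which were chosen after the windows had been seen.

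The gamma-activated site, with the letters TTCNNNGAA, is a DNA element through which IFN-γ signalling is known to act. It was found in 8.3% of the 32851 windows and in 1 of the 5 member windows, that of C1ra. There it begins 33 bases after the RefSeq start and lies within the GENCODE gene. A site also lies in the window of C1rb, the close copy of C1ra, at 119 bases before its RefSeq start. The GENCODE gene of C1rb starts farther upstream, at chr6:124570294, so this site too lies within the GENCODE gene. Both are shown with 9 bases on either side, the match in capitals, because C1ra and its copy differed in their values. The C1ra stretch is chr6:124512644-124512670 and the C1rb stretch is chr6:124570302-124570328, both on the forward strand, and 26 of their 27 bases are identical.
C1ra: aatgcttcaTTCCCTGAAacattcctc
C1rb: aatgcttcaTTCCCTGAAacatttctc

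The C/EBP motif, searched as TTGCNNAAT, was present in 2.4% of all windows and in 2 of the 5 member windows, those of C1s1 and C3. C/EBP factors act at many acute phase genes. The 250 bases before the start of each gene are shown 5′ to 3′ along the gene, with this match in capitals, because C1s1 and C3 have the highest CPM of the 2 patterns described next. In C1s1 (chr6:124542360-124542609, reverse strand) the match begins 243 bases before the start and reads on the opposite strand. In C3 (chr17:57228137-57228386, reverse strand) it begins 45 bases before the start.
C1s1: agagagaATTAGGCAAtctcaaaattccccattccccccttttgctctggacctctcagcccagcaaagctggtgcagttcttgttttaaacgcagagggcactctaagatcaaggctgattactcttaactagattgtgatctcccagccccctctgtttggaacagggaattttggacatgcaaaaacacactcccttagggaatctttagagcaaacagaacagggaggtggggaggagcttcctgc
C3: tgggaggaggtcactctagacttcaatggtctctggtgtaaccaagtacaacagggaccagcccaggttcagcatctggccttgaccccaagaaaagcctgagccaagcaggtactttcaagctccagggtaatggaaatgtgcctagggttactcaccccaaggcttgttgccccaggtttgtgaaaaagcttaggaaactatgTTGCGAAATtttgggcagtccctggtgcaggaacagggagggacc
The interferon-stimulated response element (GAAA, 2 bases of any kind, GAAA), present in 3.44% of windows, matched in 0 of the 5 member windows. The NF-kB motif (GGG, 2 bases of any kind, TTTCC), present in 1.63%, matched in C3ar1 alone. The TATA motif TATAAA, present in 13.6%, matched in C3ar1, where it begins 235 bases before the start. It also matched in C3, where it begins 15 bases after the start. A match is a description of these letters in this window.

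C1ra and C1s1 were the 2 members in which every IFN-γ tumor lay above every control tumor. C1ra, the protease that is activated first within the C1 complex, was at 90.8, 113 and 103 CPM in control tumors 1, 2 and 3 against 181, 199 and 161 CPM in the corresponding IFN-γ tumors. Means were 102 ± 11.3 CPM for controls and 180 ± 18.6 CPM for IFN-γ (SD, n = 3 each), a log2 fold change of 0.81 with a standard error of 0.11, and of 0.88 with a standard error of 0.10 without IFN-γ tumor 3. The groups did not overlap, and the lowest IFN-γ value, in tumor 3, was still 1.57 times the control mean.

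C1s1, the protease that cleaves C4 and C2, was at 184, 226 and 212 CPM in the control tumors and at 383, 407 and 337 CPM in the IFN-γ tumors. The mean was 207 ± 21.3 CPM in controls and 376 ± 35.4 CPM with IFN-γ (SD, n = 3 each), with a log2 fold change of 0.86 and a standard error of 0.10, or 0.92 and 0.097 without IFN-γ tumor 3. IFN-γ tumor 3 was again the lowest of its group and was 1.63 times the control mean. Both genes passed the threshold of an adjusted p of 0.05 in edgeR's quasi-likelihood test over all 15114 genes, which 12 genes (0.0794%) passed in the higher direction and 5 (0.0331%) in the lower, where 0 members passed. Every IFN-γ tumor exceeded every control in 7.63% of all genes tested and in these 2 of the 9 members. Because this contrast helped to choose the genes, nothing is read from these counts. In 7 of the 12 alternative fits, among them each of the 5 that left out a tumor other than IFN-γ tumor 3, neither gene passed, while their log2 fold changes stayed between 0.74 and 0.92 in all 12.

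**Figure D1:**
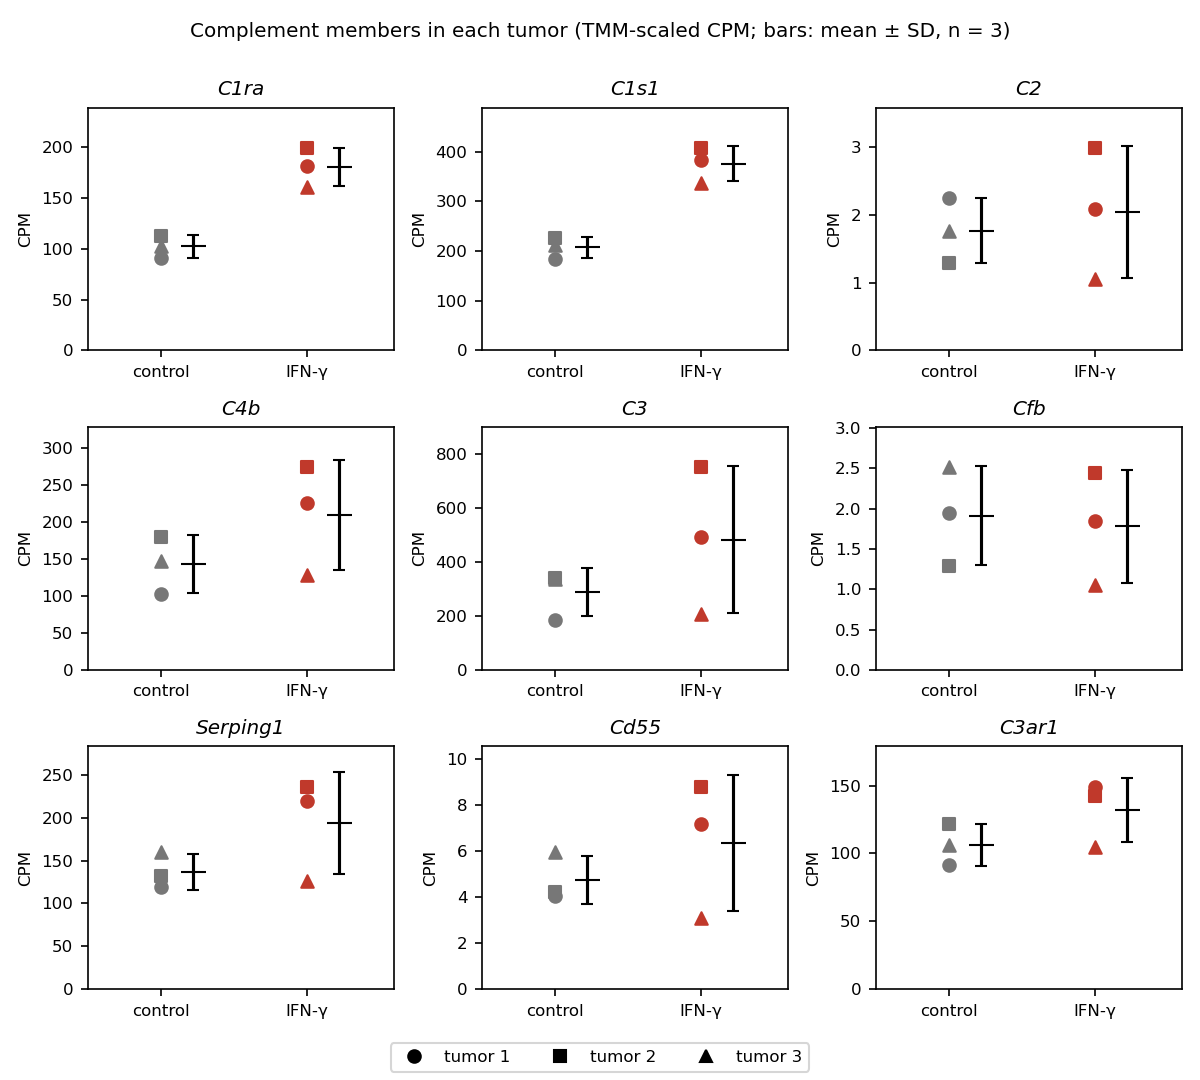
CPM of the 9 members in each tumor, 1 panel per gene with its own axis from 0. Grey points are control tumors and red points IFN-γ tumors, the shape gives the tumor number, and the bars are the mean ± SD of 3 tumors. In C1ra and C1s1 the red points all lie above the grey ones, whereas the red triangle of IFN-γ tumor 3 falls within or below the control points in the other 7 genes.

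The transcripts of the protease pair held an almost fixed ratio. Per kilobase of merged exon, C1s1 was 1.93, 1.90 and 1.96 times the level of C1ra in the control tumors and 2.01, 1.95 and 1.99 times in the IFN-γ tumors. The ratio therefore ranged from 1.90 to 2.01 over tumors whose C1s1 level ranged from 184 to 407 CPM. Of the 50-base windows of the C1ra transcript, 50.8% also occur in other genes, against 24.3% for C1s1. How such reads were counted is not given, so the level of this ratio is uncertain. The ratio of the inhibitor to its target proteases varied more. Serping1 per kilobase was 0.872, 0.789 and 1.02 times the C1s1 level in controls and 0.769, 0.780 and 0.504 times with IFN-γ, so that each IFN-γ tumor was below each control in this ratio, and tumor 3 was the lowest. These ratios are descriptions of the same values that chose the genes.

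Serping1 itself was at 119, 132 and 160 CPM in the control tumors and at 219, 236 and 126 CPM in the IFN-γ tumors. IFN-γ tumors 1 and 2 exceeded every control, and tumor 3 fell between the lowest 2 controls. The means were 137 ± 21.0 and 194 ± 58.8 CPM (SD, n = 3 each), with a log2 fold change of 0.49 (standard error 0.22). Without IFN-γ tumor 3 it was 0.72 (standard error 0.12), and Serping1 was then the third member past the adjusted threshold, beside C1ra and C1s1. That fit called 381 of 15487 genes (2.46%) higher and 112 (0.723%), 0 of them members, lower. The same contrast chose the genes, and tumor 3 was set apart after its values were seen, so nothing is read from this call.

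**Figure D2:**
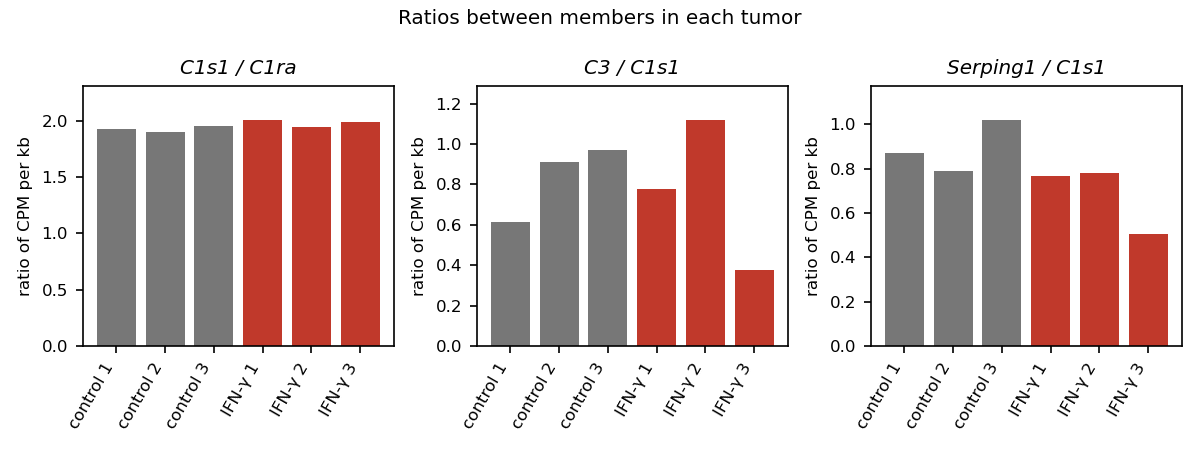
Ratios between the levels of 2 members (CPM per kilobase of merged exon) in each tumor, as bars from 0, grey for control and red for IFN-γ. The C1s1 to C1ra ratio stays between 1.90 and 2.01, and IFN-γ tumor 3 has the lowest C3 to C1s1 ratio (0.375) and the lowest Serping1 to C1s1 ratio (0.504).

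C3, on which all activation pathways converge, was the member that varied most between tumors among the 6 abundant ones. It was at 186, 339 and 338 CPM in the control tumors and at 490, 749 and 208 CPM in the IFN-γ tumors. IFN-γ tumor 2 was 2.60 times the control mean, while tumor 3 was 0.723 times that mean and only above control tumor 1. The means were 288 ± 88.3 CPM in controls and 482 ± 271 CPM with IFN-γ (SD, n = 3 each). The log2 fold change was 0.74 with a standard error of 0.41 in 6 tumors and 1.10 with a standard error of 0.26 without IFN-γ tumor 3.

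C4b, which encodes the C4 that C1s cleaves, followed the same order of tumors within the IFN-γ group. It was at 102, 180 and 148 CPM in controls and at 226, 274 and 129 CPM with IFN-γ, with means of 144 ± 39.1 and 210 ± 74.1 CPM (SD, n = 3 each). IFN-γ tumors 1 and 2 exceeded every control and tumor 3 lay inside the control range. The log2 fold change was 0.55 (standard error 0.28), and 0.79 (standard error 0.20) without tumor 3. Relative to C1s1 per kilobase, C3 was at 0.613, 0.913 and 0.971 in controls and at 0.779, 1.12 and 0.375 with IFN-γ, and C4b at 0.305, 0.438 and 0.384 against 0.325, 0.370 and 0.210. The groups overlapped in both ratios, and IFN-γ tumor 3 had the lowest value in each.

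C2 and Cfb, the proteases of the classical and the alternative C3-cleaving enzymes, were near the limit of what the depth can show. C2 had 36, 23 and 31 counts in the control tumors and 36, 49 and 17 in the IFN-γ tumors, or 2.25, 1.29 and 1.77 CPM against 2.09, 2.99 and 1.05 CPM. Its log2 fold change was 0.21 with a standard error of 0.41, and 0.51 (standard error 0.34) without IFN-γ tumor 3. The 95% Poisson interval of the lowest count, 17, ran from 9.9 to 27.2, and that of the highest, 49, from 36.3 to 64.8, for counting error only.

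Cfb had 31, 23 and 44 counts in controls and 32, 40 and 17 with IFN-γ, or 1.94, 1.29 and 2.51 CPM against 1.85, 2.44 and 1.05 CPM. It was the 1 member with a log2 fold change below 0 (-0.10, standard error 0.39), which was 0.16 (standard error 0.36) without IFN-γ tumor 3. The groups overlapped in both genes, and IFN-γ tumor 3 was below every control in both. The 2 genes lie 85 bp apart, and the read-through gene Gm20547 shares 1656 exonic bases with C2 and 2246 with Cfb on the same strand. It was listed at 0 counts in all 6 tumors, and how reads in shared exons were counted is not given in the sources used here, so the low levels of C2 and Cfb are uncertain.

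Cd55, the membrane regulator, was low as well, with 65, 75 and 104 counts in controls and 124, 144 and 50 with IFN-γ. In CPM these were 4.06, 4.22 and 5.94 against 7.19, 8.79 and 3.09, so that IFN-γ tumors 1 and 2 exceeded every control and tumor 3 was below every control. The log2 fold change was 0.42 (standard error 0.36), and 0.74 (standard error 0.23) without tumor 3. The close copy Cd55b, which shares 10.7% of the 50-base windows of the Cd55 transcript, had 0 counts in every tumor.

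C3ar1, the C3a receptor of myeloid cells, was at 91.3, 122 and 106 CPM in the control tumors and at 149, 142 and 105 CPM in the IFN-γ tumors. Its means were 106 ± 15.2 and 132 ± 23.9 CPM (SD, n = 3 each), the log2 fold change was 0.31 (standard error 0.15), and without IFN-γ tumor 3 it was 0.44 (standard error 0.12). It was the 1 member with its highest value in IFN-γ tumor 1, whereas 7 of the 9 peaked in IFN-γ tumor 2, as did 18.2% of all genes tested. Over the 9 members, IFN-γ tumors 1 and 2 lay above every control in 7, against 18.1% of the genes tested without tumor 3, and tumor 3 lay within or below the control range in 7. Of all genes tested, 10.5% had tumors 1 and 2 above every control with tumor 3 not above the highest control, and among the members these were C3, C4b, Serping1, Cd55 and C3ar1. The same contrast chose the genes, so nothing is read from these counts either.

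**Figure D3:**
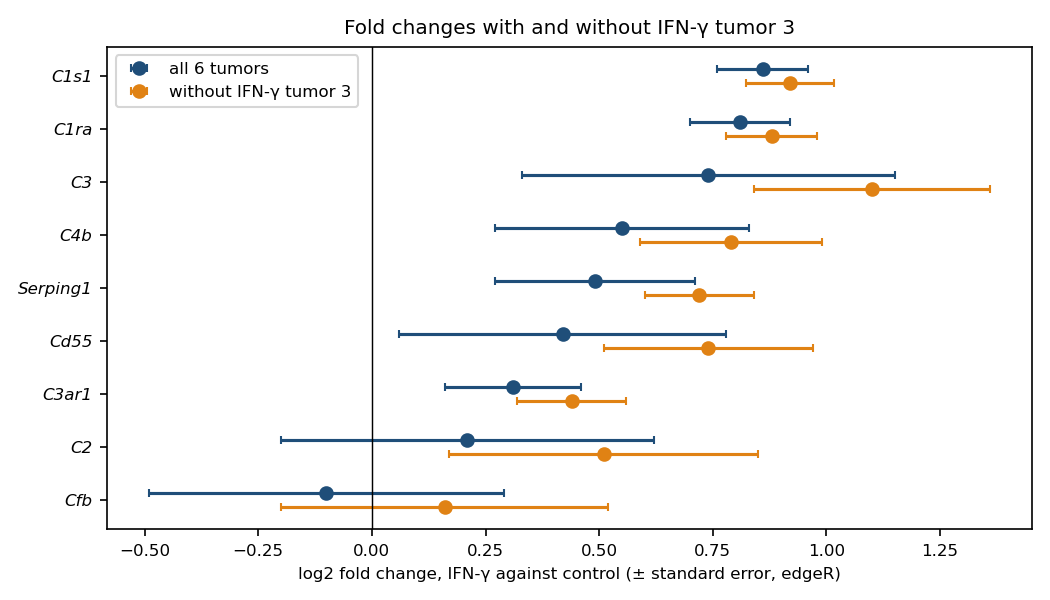
Log2 fold change of each member (IFN-γ against control, edgeR) with its standard error as the bar, in all 6 tumors (blue) and without IFN-γ tumor 3 (orange). C1s1 and C1ra move least between the 2 fits, from 0.86 to 0.92 and from 0.81 to 0.88, and C3 moves from 0.74 to 1.10.

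Levels were also ordered between genes, as CPM per kilobase of merged exon. Sequence shared with other genes leaves the levels of some members uncertain, C1ra among them. In the control group C1s1 came first at 66.3 ± 6.79, followed by Serping1 at 59.1 ± 9.03, C3 at 56.0 ± 17.2, C1ra at 34.4 ± 3.79, C4b at 25.2 ± 6.86 and C3ar1 at 24.7 ± 3.52 (SD, n = 3 each). Each of these overlapped its neighbour in the order. A gap followed, with Cd55 at 0.976, Cfb at 0.677 and C2 at 0.457, which overlapped each other but not C3ar1. With IFN-γ, C3 moved to the second place, at 93.8 ± 52.6 against 120 ± 11.3 for C1s1 and 83.3 ± 25.3 for Serping1, and these 3 overlapped in turn. C1ra (60.5 ± 6.26) then lay above C4b (36.8 ± 13) without overlap, and C3ar1 (30.7 ± 5.55) lay above Cd55 (1.31), Cfb (0.631) and C2 (0.527).

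The wider pathway was examined with 46 complement genes outside the members, listed by role from general knowledge. This and the other gene lists were made with earlier results of these data known. Counts of list genes called, here and below, are therefore a description beside the share of all genes. Of these, 27 passed the filter and 6 had 0 counts in every tumor. In edgeR's test over all genes, 0 of the 27 passed the adjusted threshold in either direction. At an unadjusted p under 0.05, 7 were higher and 0 lower, against 5.74% of all genes higher and 4.44% lower. DESeq2 called 4 higher (C1qa, C1qb, C1s2 and Cfd), with 0.753% of all genes called higher, and limma-voom 0. Without IFN-γ tumor 3, edgeR called 5 higher: C1qa, C1qb, C1qc, C1s2 and Cfd. The median log2 fold change of the 27 was 0.20 in 6 tumors and 0.34 without tumor 3, where the medians over all genes tested were 0.00 and -0.02.

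The 3 chains of C1q, the recognition unit that carries C1r and C1s and is made mostly by macrophages, had log2 fold changes of 0.55 for C1qa, 0.48 for C1qb and 0.51 for C1qc. C1qa was at 404, 467 and 478 CPM in controls and at 669, 779 and 534 CPM with IFN-γ, and its groups did not overlap. Its adjusted p in edgeR's test was 0.26 with 6 tumors and 0.016 without IFN-γ tumor 3 (log2 fold change 0.68), and 0.01 by DESeq2 with 6 tumors. For C1qb and C1qc the adjusted p values without tumor 3 were 0.012 and 0.014. The values without tumor 3 are a description, since that tumor was set apart after its values were seen. Masp1, a protease of the lectin pathway, had a log2 fold change of 0.43 (edgeR adjusted p = 0.48) with its highest value, 30.6 CPM, in IFN-γ tumor 3.

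Close copies of the members were compared with them. Of the 50-base windows of the C1ra transcript, 48% also occur in C1rb. The same holds for 24.3% of those of C1s1 in C1s2 and 35.2% of those of C4b in C4a. This leaves the counts of these members and of their copies uncertain. C1s2 was at 14.7, 19.0 and 13.2 CPM in controls and at 27.9, 27.9 and 21.7 CPM with IFN-γ, without overlap (log2 fold change 0.72, standard error 0.16, edgeR adjusted p = 0.23; 0.030 without IFN-γ tumor 3). C1rb was at 8.99, 11.6 and 11.6 CPM against 12.2, 17.2 and 7.23 CPM, with a log2 fold change of 0.19 (standard error 0.29) that was -0.15 without IFN-γ tumor 2. The C1ra to C1rb ratio per kilobase was 8.23, 7.97 and 7.26 in controls and 12.1, 9.41 and 18.2 with IFN-γ, each IFN-γ tumor above each control. C4a had a log2 fold change of 0.14 (standard error 0.35), which changed sign when IFN-γ tumor 1 or control tumor 3 was left out.

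Cfd, the factor D protease that cleaves factor B and is made by adipocytes, had the largest fold change of the 27 genes. It was at 6.43, 3.83 and 6.33 CPM in controls and at 13.4, 32.0 and 23.4 CPM with IFN-γ, without overlap and without a drop in tumor 3. Its log2 fold change was 2.05 with a standard error of 0.33 (edgeR adjusted p = 0.096), and 2.03 without IFN-γ tumor 3 (adjusted p = 0.024). All 8 adipocyte markers were tested with a median log2 fold change of 2.17, where 0 passed the adjusted threshold and 6 were higher at an unadjusted p under 0.05 (5.74% of all genes). Without IFN-γ tumor 3, 4 of the 8 passed the adjusted threshold (2.46% of all genes), namely Plin1, Cidec, Lep and Lpl, and the median was 2.15. Their summed level was 118 to 169 CPM in controls and 171 to 226 CPM with IFN-γ. Most of that sum was Fabp4, at 90.9 to 134 CPM in controls and 118 to 140 CPM with IFN-γ. Its log2 fold change of 0.23 was the smallest of the 8 markers. Adipoq was at 0.450 to 1.81 CPM in controls against 3.13 to 6.83 CPM with IFN-γ. The part of adipocyte content in the Cfd difference was not tested.

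Of the 5 tested regulators outside the members, 0 were higher and 0 lower at an unadjusted p under 0.05, and their median log2 fold change was -0.22. Cr1l, the rodent membrane regulator of C3 deposition, was at 70.9 to 73.2 CPM in controls and 71.0 to 78.1 CPM with IFN-γ (log2 fold change 0.07, standard error 0.07). Among the receptors, Itgam, a chain of complement receptor 3, passed an unadjusted p under 0.05 (log2 fold change 0.37, edgeR adjusted p = 0.35) with every IFN-γ tumor above every control. C5ar1, the C5a receptor, had a log2 fold change of -0.36 (standard error 0.19, edgeR adjusted p = 0.57). Hc, which encodes C5, was too low to be tested, with at most 1.34 CPM.

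**Figure D4:**
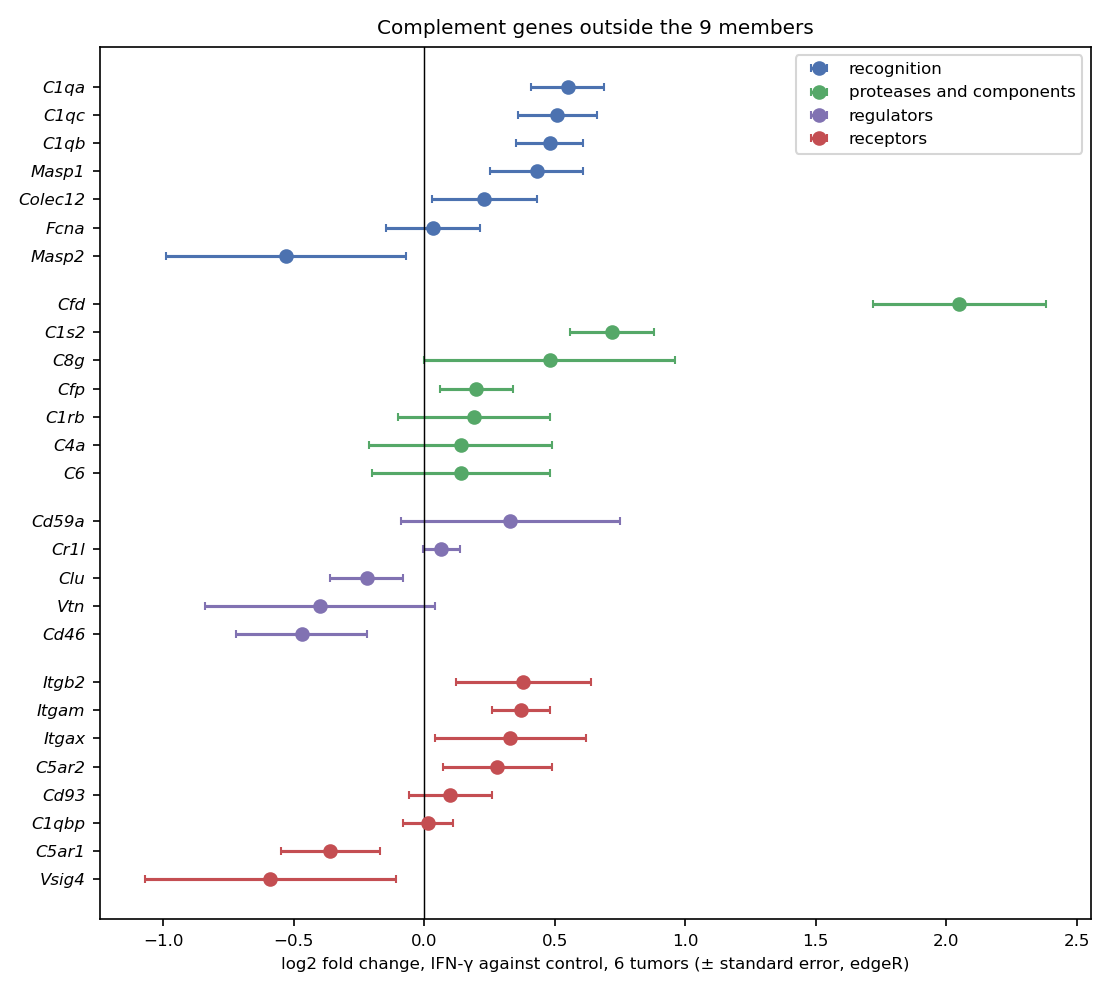
Log2 fold change (IFN-γ against control, 6 tumors, edgeR) with its standard error for the 27 tested complement genes outside the 9 members, grouped by role. Cfd stands at 2.05 and C1s2 at 0.72, the C1q chains lie between 0.48 and 0.55, and regulators lie on both sides of 0.

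For the IFN-γ response list (20 genes tested) the median log2 fold change was 0.65 in 6 tumors, with 0 genes past the adjusted threshold and 14 higher at an unadjusted p under 0.05 (5.74% of all genes). Without IFN-γ tumor 3 it was 0.93, with 15 genes called higher (2.46% of all genes). That tumor was set apart partly on its values in this same list. The values and calls of these genes without it are therefore a description and carry no test. Irf1, a transcription factor induced by IFN-γ, was at 140 to 211 CPM in controls and at 308, 290 and 176 CPM with IFN-γ (log2 fold change 0.60, edgeR adjusted p = 0.40; 0.80 and 0.030 without tumor 3). The median of this list had tumor 3 within the control range, as had C3, C4b, Serping1 and C3ar1. By gene, tumor 3 was within the control range in 16 of the 20 and below every control in 3 (Gbp7, Nlrc5 and Cxcl10). It was above every control in 1, Socs1, a feedback inhibitor of cytokine signalling, at 27.1 CPM against 17.1 to 17.8 CPM, as it was in C1ra and C1s1. Of 13 acute phase and IL-6 pathway genes, 4 were higher at an unadjusted p under 0.05 and 0 passed the adjusted threshold in 6 tumors, and 2, Orm1 and Nfkbia, passed it without IFN-γ tumor 3. Over both lists DESeq2 called 1 gene higher (0.753% of all genes) and limma-voom 0, with 18 higher at an unadjusted p under 0.05 in edgeR's test. Log2 fold changes of single genes with 6 tumors were 0.16 for Socs3, 0.25 for Il6 and 0.71 for Lcn2.

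Markers of the cells that can make complement also differed between tumors. Of 76 markers in 9 lists, 56 were tested and 0 passed edgeR's adjusted threshold. At an unadjusted p under 0.05, 14 were higher and 5 lower, against 5.74% and 4.44% of all genes. DESeq2 called 6 higher, against 0.753% of all genes, and limma-voom called 0. Without IFN-γ tumor 3, edgeR called 11 of 57 tested markers higher and 0 lower, against 2.46% and 0.723% of all genes. The 10 macrophage markers, all tested, summed to 2830, 3150 and 3430 CPM in controls and to 4090, 5050 and 2970 CPM with IFN-γ, and 4 of the 10 were higher and 1 lower at an unadjusted p under 0.05. Without IFN-γ tumor 3, 4 of the 10 passed the adjusted threshold, namely Adgre1, Cd68, Lyz2 and Fcgr1. The 10 fibroblast markers summed to 1980, 1480 and 2810 CPM against 2560, 2820 and 1530 CPM, and the 8 T cell markers to 47.3, 72 and 66.7 CPM against 98.5, 115 and 39.5 CPM. IFN-γ tumor 3 was within or below the control range in all 3 sums, as it was for C3, C4b, Serping1, Cd55 and C3ar1.

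Per 1000 CPM of the 10 macrophage markers, C1s1 was at 65.0, 71.7 and 61.8 CPM in controls and at 93.5, 80.7 and 114 CPM with IFN-γ, each IFN-γ tumor above each control. C1ra likewise was at 32.1, 36 and 30.1 against 44.2, 39.4 and 54.3. C3ar1 was at 32.2, 38.6 and 31.0 against 36.5, 28.1 and 35.3, and Serping1 at 42.1, 42.0 and 46.7 against 53.4, 46.8 and 42.6, so that the groups overlapped in both. Per 1000 CPM of the 10 fibroblast markers the groups overlapped in both proteases. There C1s1 was at 93.1, 153 and 75.4 CPM in controls and at 150, 145 and 220 CPM with IFN-γ, and C1ra at 45.9, 76.6 and 36.7 against 70.8, 70.5 and 105, with IFN-γ tumors 1 and 2 below control tumor 2 in each. The part of macrophage or fibroblast content in the differences of the members was not tested beyond these ratios. The collagen genes Col1a1 (317 to 853 CPM) and Col3a1 (635 to 1440 CPM) accounted for much of the fibroblast sum, and no ratio without them was computed. Lyz2 alone accounted for much of the macrophage sum, and per 1000 CPM of the other 9 macrophage markers C1s1 was at 148 to 169 in controls and 253 to 302 with IFN-γ.

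**Figure D5:**
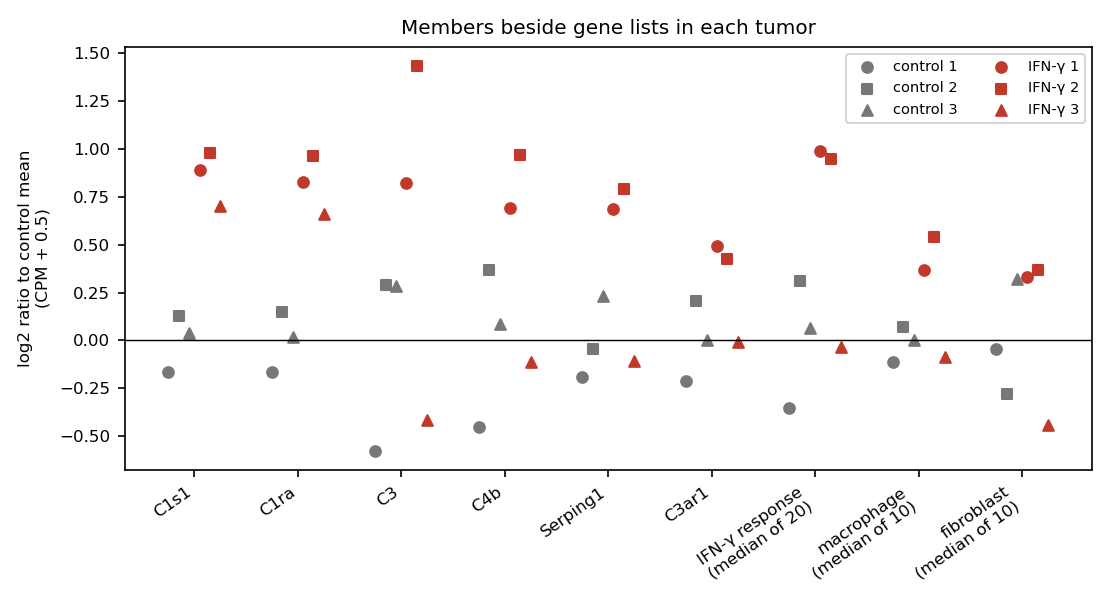
Log2 ratio of each tumor to the control mean (CPM + 0.5) for the 6 abundant members, and the median of these ratios over the IFN-γ response, macrophage and fibroblast lists. IFN-γ tumor 3 (red triangle) lies at -0.04 for the IFN-γ response list and near or below 0 for C3, C4b, Serping1 and C3ar1, but above every control for C1s1 and C1ra.

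The genes outside the members whose log2 CPM over the 6 tumors was most like the mean of the members' standardized values were Ms4a6d (Pearson r = 0.999), Ly6a (0.998), Arl6ip1 (0.996), Spi1 (0.996) and Themis (0.995). Ly6a was at 184, 226 and 240 CPM in controls and at 378, 469 and 201 CPM with IFN-γ, with tumor 3 inside the control range. Of all genes tested, 634 (4.2%) had an r above 0.9 with this mean over the same 6 libraries. Among the members, Serping1 was closest to the mean (0.990), followed by C3 (0.962), Cd55 (0.939) and C4b (0.928). C1ra (0.752) and C1s1 (0.743) were farther from it, and Cfb was the farthest (0.557).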

How the data were processed

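Illumina libraries were made from tumor RNA. The authors deposited raw read counts for each gene as whole numbers that had not been normalized. The submitters' processing notes name HISAT2 and mm10. The counting program, annotation and strandedness are not given in the sources used here, so genes that overlap or have close copies are uncertain.

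The counts of all 6 tumors were scaled with TMM factors and tested in edgeR 4.0.16 (R 4.3.3) by its quasi-likelihood test after filterByExpr, with Benjamini-Hochberg adjusted p under 0.05 as the threshold. Standard errors are the absolute log2 fold change over the root of F. DESeq2 1.42.0, limma 3.58.1 (voom), other scalings, no filter, a replicate block and fits leaving out 1 tumor each were the alternatives. Poisson intervals came from SciPy 1.17.1. Scripts were tested on simulated counts. Positions and exon lengths came from GENCODE M21, which held 99.38% of the 55487 identifiers. Motifs were searched in RefSeq windows. No pair of libraries was a duplicate (correlations 0.98 to 0.993, smallest chi-square per gene 5.79).

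The members and gene lists were chosen with earlier results of these data known. The genes named were the 9 members, other complement genes with an adjusted, or else unadjusted, p under 0.05, the close copies of members, the C1q chains, Cfd, Cr1l and C5ar1, and Irf1, Socs3, Il6 and Lcn2. Added to these were the 5 genes most like the members' mean. Orm1, Nfkbia, Socs1, Gbp7, Nlrc5, Cxcl10, Hc and the markers named singly were chosen after their values were seen. A further listed gene is not reported here and was left out of the counts and medians of the lists.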

Additional observations from a re-analysis of the deposited data

How the results depend on the processing

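The log2 fold changes of the members kept their direction under all 12 alternatives except for C2 (-0.17 without IFN-γ tumor 2) and Cfb (-0.39 to 0.16). All 108 of these fold change comparisons moved by less than the spread between replicates. The 1 other member comparison, the share of C3 given below, moved with the unit. The count of higher genes over the whole table (12 with 6 tumors) was 116 with DESeq2, 7 with library size only, 150 with no filter on low counts and 5 with the replicate block, and 4 to 381 when 1 tumor was left out, 381 being without IFN-γ tumor 3. Lower genes (5) were 68 with DESeq2, 3 with limma-voom, 70 with no filter, 2 with the block and 2 to 112 when 1 tumor was left out. Members called higher (2) were 0 with library size only, 1 with limma-voom, 0 with the replicate block and 0 to 3 when 1 tumor was left out, 3 being without IFN-γ tumor 3 and 0 without any of the others. Other complement genes called higher (0) were 4 with DESeq2, 5 with no filter and 0 to 5 when 1 tumor was left out. For the IFN-γ response and acute phase lists (0) they were 1, 7 and 0 to 17, and for the marker lists (0) 6, 6 and 0 to 11, with 1 marker lower with no filter. The highest of each range was again without IFN-γ tumor 3. The median log2 fold change of the acute phase list (0.25) ran from 0.12 to 0.41 when 1 tumor was left out. The sign turned for the neutrophil marker median (0.16; -0.51 with DESeq2 and -0.51 with no filter, and -0.40, -0.30 and -0.10 without IFN-γ tumor 3, control tumor 2 and control tumor 3), the fibroblast marker median (0.13; -0.0066, -0.0086 and -0.063 without IFN-γ tumor 1, IFN-γ tumor 2 and control tumor 2), C1rb (-0.15 without IFN-γ tumor 2, up to 0.44), C4a (-0.10 without IFN-γ tumor 1, -0.06 without control tumor 3) and Il6 (-0.28 without IFN-γ tumor 2, up to 0.75). As a share of the summed member level in control tumors, C3 was 29.0% in CPM and 20.9% per kilobase. The causes were not tested. Tumors with the same number shared only that number. Their deviations correlated at -0.241, -0.00472 and -0.221, and 0 of 6 tumors correlated best with their own number, so the numbers were not taken as pairs. At this depth C2, Cfb and Cd55 rest on 17 to 144 reads per tumor.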
